A study of Mus musculus with 18 samples.

Results

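The fatty acid elongases are the 7 mouse genes Elovl1 to Elovl7, which were picked by symbol from the 22298 Ensembl genes of the deposited files; each of the 7 symbols matched 1 gene in GENCODE M21. The family was chosen when the low KO level of Elovl6 in epididymal fat was already known, so that difference is a description here and supports nothing else. RNA-seq covered liver and 2 white fat depots, the epididymal (eWAT) and the inguinal (iWAT). KO libraries came from Bckdha f/f;RIP-Cre mice and WT libraries from Bckdha f/f mice without Cre, all C57BL/6 and 12 weeks old. Each of the 6 groups (eWAT KO, eWAT WT, iWAT KO, iWAT WT, liver KO and liver WT) held 3 libraries, which makes 18 in all. Both genotypes therefore carry the floxed allele of Bckdha, a gene for 1 subunit of the mitochondrial complex that degrades branched-chain keto acids. The name RIP-Cre usually stands for Cre driven by the rat insulin promoter, known for beta cells of the pancreas and for some neurons. RIP-Cre without floxed Bckdha was in none of the groups, so an effect of the Cre line cannot be told apart from the KO. Whether each library was a different animal is not in the labels; a p-value here measures the spread between libraries, which may be technical. The sex of the mice was not given in the sources used here.

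Long fatty acids are lengthened in the endoplasmic reticulum by a cycle of reactions that adds carbon from malonyl-CoA, and an ELOVL enzyme carries out the condensation that starts each round and limits its rate. The members differ in the acyl-CoA they take. ELOVL6 turns palmitate into stearate and works beside fatty acid synthase, and its gene is a known target of the lipogenic factor SREBP-1c. ELOVL1, ELOVL3 and ELOVL7 lengthen saturated and monounsaturated chains, with ELOVL3 known from brown fat, sebaceous glands and liver. ELOVL2 and ELOVL5 lengthen polyunsaturated chains on the way to arachidonic and docosahexaenoic acid, and ELOVL4 makes the very longest chains of retina and skin.

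All coordinates are those of GENCODE M21 on mm10. Elovl6 (ENSMUSG00000041220) lies on chromosome 3 at 129532355 to 129638495, on the plus strand. Elovl5 (ENSMUSG00000032349) lies on chromosome 9 at 77917364 to 77984519 on the plus strand, and Elovl4 (ENSMUSG00000032262) on the same chromosome at 83778692 to 83806277 on the minus strand. Elovl2 (ENSMUSG00000021364) lies on chromosome 13 at 41182381 to 41220405 on the minus strand, and Elovl7 (ENSMUSG00000021696) on that chromosome at 108214404 to 108285683 on the plus strand. Elovl1 (ENSMUSG00000006390) lies on chromosome 4 at 118428093 to 118432953 and Elovl3 (ENSMUSG00000038754) on chromosome 19 at 46131897 to 46135694, both on the plus strand. The 3′ end of Elovl1 overlaps Cdc20 and that of Elovl3 overlaps Pitx3, each on the other strand. No source used here states a stranded kit, so reads in these overlaps cannot be told apart. Pitx3 reached at most 0.12 CPM (counts scaled to library size, here over all 18 libraries). Cdc20 was higher and uneven in iWAT, from 0.78 CPM in WT2 to 29.6 CPM in WT1, and its part in the Elovl1 counts was not tested.

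The upstream stretches of Elovl6, Elovl5 and Elovl2 are shown because these genes lead the family in fat or in liver. They come from RefSeq (GRCm38.p6, the same build) and end at the base before the annotated gene start: chr3:129532136-129532354 on the plus strand for Elovl6, chr9:77917115-77917363 on the plus strand for Elovl5 and chr13:41220406-41220653 on the minus strand for Elovl2. Capitals mark matches to an E-box (CACGTG) or a CCAAT box on either strand.
Elovl6: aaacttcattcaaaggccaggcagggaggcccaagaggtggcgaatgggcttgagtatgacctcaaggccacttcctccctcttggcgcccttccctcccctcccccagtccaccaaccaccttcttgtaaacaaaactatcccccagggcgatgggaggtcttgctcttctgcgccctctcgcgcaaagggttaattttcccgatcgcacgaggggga
Elovl5: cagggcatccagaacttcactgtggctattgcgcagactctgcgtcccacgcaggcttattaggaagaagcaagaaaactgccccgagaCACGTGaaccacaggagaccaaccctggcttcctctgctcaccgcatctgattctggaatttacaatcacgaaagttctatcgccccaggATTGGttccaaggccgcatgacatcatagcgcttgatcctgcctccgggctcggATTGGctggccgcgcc
Elovl2: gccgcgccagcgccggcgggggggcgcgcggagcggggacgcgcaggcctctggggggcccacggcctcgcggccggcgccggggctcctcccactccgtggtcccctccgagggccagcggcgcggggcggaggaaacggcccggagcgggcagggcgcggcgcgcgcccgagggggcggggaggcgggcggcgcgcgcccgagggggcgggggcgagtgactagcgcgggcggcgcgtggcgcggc
The Elovl5 stretch held 1 E-box, 161 bases before the RefSeq start, and 2 CCAAT boxes in reverse (ATTGG), 71 and 17 bases before it. Neither motif occurred in the stretches of Elovl6 and Elovl2, and the Elovl2 stretch was 87.1% G and C, against 55.8% for Elovl5 and 58.0% for Elovl6. These motifs and the core of a sterol regulatory element, TCACNCCAC, were searched on both strands of windows of 300 bases, from 250 before to 50 after the RefSeq start. Of all 32851 windows in the table, 7.15% held CACGTG, 37.4% held CCAAT and 1.24% held TCACNCCAC. A match is a match of letters only. RefSeq windows were at hand for 6 of the 7 members; in addition to Elovl5, those of Elovl1 and Elovl4 held a CCAAT box and that of Elovl4 an E-box, and in none of the 6 was TCACNCCAC found.

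The depth was similar across libraries, with total expected counts of 16796147 to 24357859 in eWAT, 17959394 to 28039742 in iWAT and 18629302 to 25969223 in liver. Bckdha itself ranged from 103 to 160 CPM in KO eWAT against 52.9 to 348 CPM in WT eWAT, from 117 to 261 against 119 to 232 CPM in iWAT, and from 179 to 241 against 194 to 232 CPM in liver, so the genotypes overlapped in each tissue. The labelled tissues carried their markers, with 1 exception; values of marker genes and their sums are CPM scaled over all 18 libraries, unless said otherwise, while the Bckdha values above and those of the elongases are scaled within a tissue. Alb stood at 134844 CPM or more in every liver library. Adipoq stood at 545 CPM or more in every fat library but eWAT WT2, where it was 12.0 CPM. In that library the 10 epididymis markers, all present in the files, summed to 51113 CPM, against 19 to 1264 CPM in KO eWAT and 1 and 39 CPM in the other WT eWAT libraries. KO1 and KO3 of eWAT held the highest of the remaining sums, 1093 and 1264 CPM, mostly Crisp1, and Gpx5 and Adam7, at 30807 and 6335 CPM in WT2, were at or below 14.1 and 3.45 CPM in KO eWAT. The same KO1 and KO3 libraries held 2734 and 2654 CPM of smooth muscle markers, against 168 CPM in KO2 and 252 to 1291 CPM in WT eWAT, and KO1 held 895 CPM of spermatid markers. The part of these transcripts in the eWAT differences was not tested. For the elongases and the pathway lists, calls and directions that rest on eWAT were also taken from a fit of 15 libraries without eWAT WT2, KO1 and KO3, which leaves KO2 as the lone KO eWAT library and assumes that it varies like the other groups. In bulk tissue, fewer cells of a type and less RNA per cell cannot be told apart.

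Different genes are compared on the deposited FPKM scale, which divides reads by gene length and library size. In KO eWAT the order was Elovl5 (47.1 to 59.9 FPKM), Elovl1 (38.7 to 43.8 FPKM), Elovl6 (2.09 to 6.23 FPKM) and Elovl2 (0.45 to 6.97 FPKM), and only the last pair overlapped. In WT eWAT the order was Elovl6 (51.3 to 100.09 FPKM), Elovl5 (30.3 to 93.8 FPKM) and Elovl1 (21.2 to 33.8 FPKM), and each neighbour overlapped the next. The first place in fat follows the level of Elovl6, on which the family was chosen: Elovl5 stood first in all 6 KO libraries of both depots, and Elovl6 stood first in 4 of the 6 WT libraries. Among those 4 was eWAT WT2, with 12.0 CPM of Adipoq.

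In KO iWAT the order was Elovl5 (53.3 to 56.8 FPKM), Elovl1 (38.5 to 47.1 FPKM), Elovl6 (14.3 to 26.6 FPKM), Elovl3 (2.12 to 2.39 FPKM) and Elovl7 (0.71 to 0.83 FPKM), with no overlap between neighbours. In WT iWAT it was Elovl6 (55.2 to 112 FPKM) and Elovl5 (52.9 to 71.7 FPKM), which overlapped, then Elovl1 (32.3 to 45.4 FPKM) and Elovl3 (2.28 to 12.8 FPKM). Elovl2 and Elovl4 were at 0.50 FPKM or less in every iWAT library, which is the low end of the family in inguinal fat.

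Liver held another mixture, led by Elovl2 in all 6 libraries. In KO liver Elovl2 spanned 130 to 225 FPKM, Elovl5 62.3 to 132 FPKM, Elovl1 24.0 to 38.1 FPKM, Elovl3 10.7 to 18.6 FPKM and Elovl6 5.01 to 10.9 FPKM. In WT liver Elovl2 spanned 78.8 to 98.6 FPKM, Elovl5 46.5 to 70.6 FPKM, Elovl1 32.6 to 42.7 FPKM, Elovl6 10.6 to 19.0 FPKM and Elovl3 3.79 to 8.0 FPKM. Elovl3 thus ranked above Elovl6 by mean in KO liver, where the pair overlapped slightly, and below it without overlap in WT liver. Elovl7 and Elovl4 were at 0.31 FPKM or less in every liver library, and these low FPKM rest on few reads: Elovl7 had 14, 0 and 14 reads in KO liver against 8, 5 and 8 reads in WT liver, and Elovl4 had 1, 1 and 2 reads against 1, 0 and 0 reads. A count of 0 allows up to 0.116 CPM of Elovl7 in KO2 and up to 0.174 and 0.141 CPM of Elovl4 in WT2 and WT3 (3 counts per library, counting error only).

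**Figure D1:**
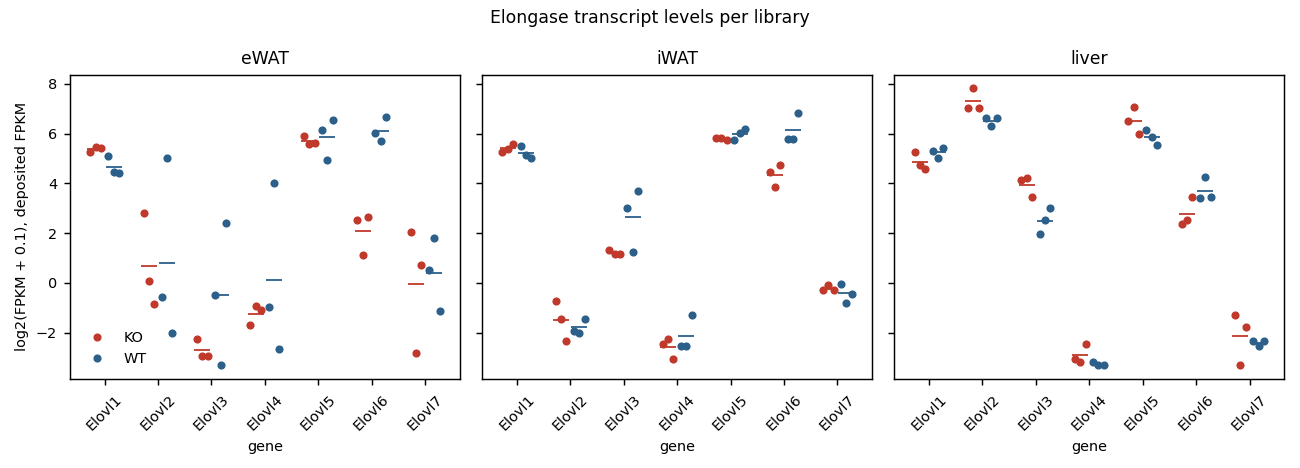
Deposited FPKM of each elongase as log2(FPKM + 0.1), by tissue; points are libraries, KO left of WT, and lines are means of the log values (n = 3). Elovl6 lies between 2.09 and 6.23 FPKM in KO eWAT and between 51.3 and 100.09 FPKM in WT eWAT, and Elovl2 leads in all 6 liver libraries.

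As shares of the summed FPKM of the 7 genes, Elovl6 made up 4.42% ± 2.02 in KO eWAT against 38.7% ± 6.15 in WT eWAT (SD, n = 3 each). In iWAT it made up 16.9% ± 4.14 in KO libraries against 39.3% ± 8.21 in WT libraries, and in liver 2.58% ± 1.73 against 6.60% ± 2.78. In eWAT and iWAT no KO share reached a WT share. Elovl1 filled more of the family in KO fat, with 40.9% ± 6.63 in KO eWAT against 14.4% ± 4.95 in WT eWAT and 34.7% ± 2.47 in KO iWAT against 21.3% ± 6.97 in WT iWAT. Shares add up to a fixed whole, so the fall of one member's share raises the others. Elovl2 made up 52.0% ± 4.75 of the family in KO liver against 44.1% ± 3.53 in WT liver.

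The summed level of the family in fat follows Elovl6. The 7 genes summed to 94.4 to 115 FPKM in KO eWAT against 155 to 221 FPKM in WT eWAT, and to 116 to 130.01 FPKM in KO iWAT against 158 to 230 FPKM in WT iWAT. Without Elovl6, the other members summed to 110, 92.3 and 94.7 FPKM in KO eWAT against 108, 104 and 121 FPKM in WT eWAT, and to 98.9, 102 and 103 FPKM in KO iWAT against 107, 102 and 118 FPKM in WT iWAT. These sums overlapped between the genotypes in both depots. The overlap in eWAT came from KO1 alone, a library left out of the fit of 15 libraries. WT2, also left out there, held 32.1 FPKM of Elovl2 and 15.9 FPKM of Elovl4. KO2 stood at 92.3 FPKM, below WT1 and WT3. The separation of the full sums thus rests on Elovl6 in iWAT, while in eWAT it is not settled whether other members add to it. The low KO level of Elovl6 in eWAT was known when the family was chosen. In liver the members without Elovl6 summed to 277, 403 and 227 FPKM in KO libraries, against 212, 175 and 195 FPKM in WT libraries. All KO sums stood above all WT sums. Elovl2 was the largest part of them, at 131, 225 and 130 FPKM in KO liver against 98.6, 78.8 and 98.1 FPKM in WT liver. Elovl3 was also higher without overlap, but Elovl5 and Elovl1 overlapped, and Elovl1 averaged 29.7 FPKM in KO against 38.1 FPKM in WT. The liver separation is thus not one of every member, and it was not tested without Elovl2. The median gene had a KO minus WT difference of 0.31 in eWAT, 0.12 in iWAT and 0.09 in liver on the log2(FPKM + 1) scale.

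**Figure D2:**
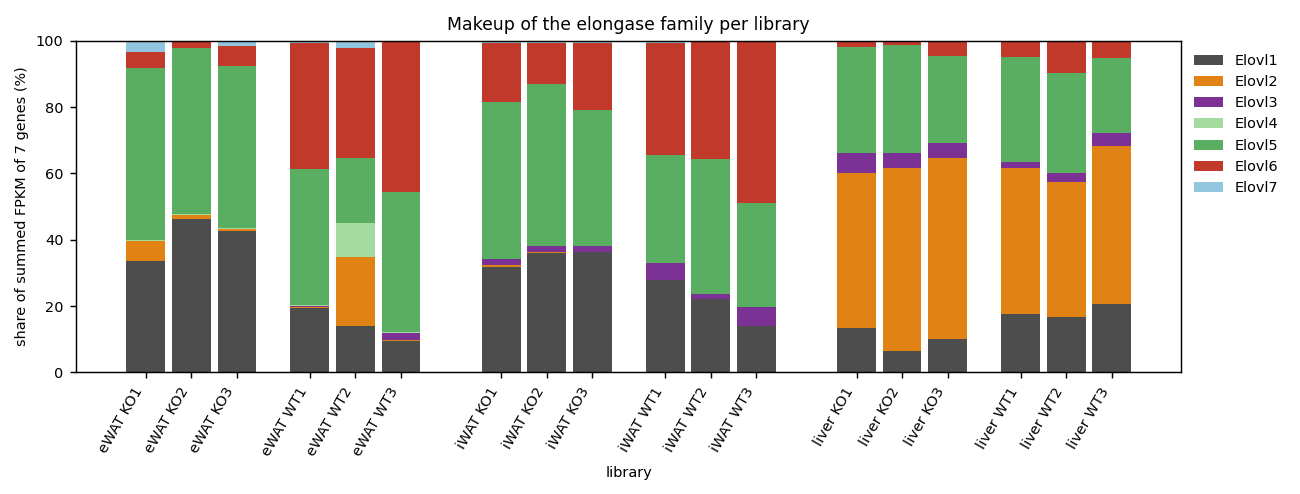
Share of each elongase in the summed deposited FPKM of the 7 genes (per cent), 1 bar per library, KO left of WT in each tissue. The Elovl6 share averages 4.42% in KO eWAT against 38.7% in WT eWAT, and eWAT WT2 is the library with large Elovl2 and Elovl4 shares.

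The question of the design is what differs between KO and WT in each tissue, and it was tested with edgeR's quasi-likelihood test on the rounded expected counts of all genes. Values per library are CPM scaled with TMM factors within a tissue, and a log2 fold change carries its standard error. With a Benjamini-Hochberg adjusted p under 0.05, 0 of 6 elongases tested in eWAT were called, against 0% of all 14657 genes. In iWAT 0 of 6 were called, against 0% of 14226 genes, and in liver 0 of 5, against 0.0504% of 11915 genes (6 genes). At an unadjusted p under 0.05 there were 1 elongase in eWAT, 2 in iWAT and 3 in liver. Over all genes these were 843 of 14657, 593 of 14226 and 720 of 11915. The 1 in eWAT was Elovl6, whose low KO level there was known when the family was chosen, so nothing is read from it. DESeq2 called 1 elongase in each tissue, Elovl6 in eWAT and iWAT and Elovl3 in liver. Over all genes that passed the same filter it called 126, 67 and 65. Elovl3 in eWAT, Elovl4 in iWAT, and Elovl4 and Elovl7 in liver had too few reads to pass the filter.

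Elovl6, the palmitate elongase, had lower values in every KO than in every WT library of both fat depots. In eWAT it had 24.6, 12.3 and 31.0 CPM in KO libraries, against 383, 282 and 778 CPM in WT libraries. The highest KO library stood below the lowest WT library by a wide margin. The log2 fold change was -4.41 ± 0.61, a 21.2-fold lower level, with an edgeR adjusted p of 0.706 over all genes (DESeq2 1.36e-11). The call depends on the fit: all 18 libraries in 1 fit gave an adjusted p of 0.0102, and the fit of 15 libraries gave -5.59 and 0.0296. Elovl6 was the 1 of 6 members tested in eWAT whose KO values all lay below the WT values, against 7.54% of all genes. The 10 mature adipocyte markers summed to 12088, 23064 and 16968 CPM in KO eWAT, against 28918, 216 and 48679 CPM in WT eWAT, and their part in the Elovl6 difference was not tested.

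In iWAT Elovl6 had 129, 72.0 and 139 CPM in KO libraries, against 292, 341 and 638 CPM in WT libraries. The groups did not overlap, and the log2 fold change was -1.90 ± 0.41 (edgeR adjusted p = 1; DESeq2 0.00303). Leaving out 1 iWAT library at a time kept it between -2.11 and -1.47. The adipocyte sums were 24465, 10999 and 11604 CPM in KO iWAT, against 7828, 25635 and 19907 CPM in WT iWAT. The 10 macrophage markers summed to 1235, 1770 and 1851 CPM in KO iWAT against 2472, 2658 and 2829 CPM in WT iWAT, without overlap. The B cell markers summed to 1100 to 2976 CPM in KO iWAT against 125 (WT2) to 3055 CPM (WT1) in WT iWAT, and WT2 held 532 CPM of skeletal muscle markers. The part of these cell types in the iWAT differences was not tested. In liver Elovl6 had 26.8, 33.5 and 56.7 CPM in KO libraries, against 59.7, 133 and 56.3 CPM in WT libraries, and KO3 overlapped WT3. The liver log2 fold change was -1.09 ± 0.38 (edgeR adjusted p = 0.654), and -0.58 without WT2.

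Elovl3, the elongase of brown fat and sebaceous glands, had opposite orders in iWAT and liver. In iWAT it had 4.72, 3.34 and 3.86 CPM in KO libraries, against 14.4, 4.76 and 24.1 CPM in WT libraries. KO1 and WT2 were 4.72 and 4.76 CPM, so the groups met without crossing, and on the FPKM scale they crossed, at 2.39 in KO1 and 2.28 in WT2. The log2 fold change was -1.86 ± 0.58 (edgeR adjusted p = 1). With Elovl6 it made 2 of 6 members whose KO values all lay below the WT values in iWAT, against 5.03% of all genes. Ucp1, the defining gene of thermogenic fat, had 46.9, 22.1 and 13.7 CPM in KO iWAT against 103, 10.4 and 29.3 CPM in WT iWAT, scaled within the tissue as Elovl3 is, and was lowest among WT libraries in WT2, as was Elovl3. The 9 thermogenic markers, all in the files, summed to 178 to 394 CPM in KO iWAT against 257 to 321 CPM in WT iWAT. The 10 skin and sebaceous markers gave no reading of skin, since Mgst1 made up nearly all of their sum and stood at 4079 to 8164 CPM in liver; Krt5, the keratin of basal skin cells, was at 0 to 1.43 CPM in KO iWAT against 0 to 0.23 CPM in WT iWAT. The part of these markers in the Elovl3 difference was not tested.

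In liver Elovl3 had 30.5, 35.1 and 18.5 CPM in KO libraries, against 6.80, 12.4 and 14.6 CPM in WT libraries. All KO livers stood above all WT livers. The log2 fold change was 1.32 ± 0.32, a 2.49-fold higher level (edgeR adjusted p = 0.485; DESeq2 0.02). In eWAT Elovl3 had 5, 1 and 1 reads in KO libraries, against 24, 0 and 218 reads in WT libraries, so 1 WT library carried most of the reads and WT2, with 0 reads, allows up to 0.179 CPM.

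Elovl2, which makes docosahexaenoic acid precursors in liver, had 481, 864 and 467 CPM in KO liver, against 370, 355 and 367 CPM in WT liver. The WT livers lay close together, and all KO livers stood above them. The log2 fold change was 0.73 ± 0.25, a 1.66-fold higher level (edgeR adjusted p = 0.642), and it was 0.39 without KO2. Elovl2 and Elovl3 were the 2 of 5 members tested in liver whose KO values all lay above the WT values, against 5.98% of all genes. The hepatocyte markers summed to 201242 to 235536 CPM in KO liver against 215403 to 264809 CPM in WT liver, and these ranges overlapped.

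In fat Elovl2 was low except in single libraries. In eWAT it had 20.7, 3.62 and 1.55 CPM in KO libraries, against 2.37, 123 and 0.74 CPM in WT libraries. Elovl4 had 0.48, 1.24 and 1.02 CPM in KO eWAT, against 0.93, 47.7 and 0.23 CPM in WT eWAT. Both were highest in WT2, the library with 51113 CPM of epididymis markers, and Elovl2 was next in KO1. Their log2 fold changes of -2.28 ± 1.97 and -4.16 ± 1.97 turned to 1.198 and 1.088 in the fit of 15 libraries, so neither has a direction. In iWAT Elovl2 had 7 to 53 reads in KO libraries and 11 to 21 reads in WT libraries.

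Elovl5, the most abundant elongase of KO fat, had 128, 128 and 124 CPM in KO eWAT, against 213, 82.8 and 347 CPM in WT eWAT. The KO libraries lay within the range of WT (log2 fold change -0.76 ± 0.51, edgeR adjusted p = 0.715). The low end of that range was WT2, the library with 51113 CPM of epididymis markers. WT1 and WT3 stood above every KO library, and the fit of 15 libraries gave -1.16. Elovl5 had 165, 140 and 139 CPM in KO iWAT, against 142, 199 and 206 CPM in WT iWAT, which overlapped (-0.30 ± 0.20). In liver it had 237, 369 and 161 CPM in KO libraries, against 192, 191 and 125 CPM in WT libraries, which overlapped too (0.59 ± 0.30). Elovl5 and Elovl2 act in the same polyunsaturated pathway, and KO2 was the highest liver library for both.

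Elovl1, which makes very long saturated chains for sphingolipids, overlapped between the genotypes in each tissue. It had 43.9, 61.8 and 58.1 CPM in KO eWAT against 53.4, 32.5 and 40.1 CPM in WT eWAT, and 57.6, 53.6 and 64.8 CPM in KO iWAT against 62.0, 56.1 and 48.4 CPM in WT iWAT. The log2 fold changes in the depots were 0.38 ± 0.26 and 0.08 ± 0.16. In liver Elovl1 had 51.3, 38.1 and 31.6 CPM in KO libraries, against 54.2, 51.3 and 57.3 CPM in WT libraries, and only KO1 reached the WT range, by a margin of under 0.1 CPM (-0.43 ± 0.20, edgeR adjusted p = 0.816). Elovl7 had 11.6, 0.16 and 5.03 CPM in KO eWAT against 5.05, 12.7 and 1.42 CPM in WT eWAT. The scatter within each genotype exceeded any difference between them. WT2 and KO1, the highest, were left out of the fit of 15 libraries, which gave a log2 fold change of -4.26 on 3 reads in KO2. In iWAT Elovl7 stood at 2.21 to 3.0 CPM in KO libraries against 1.85 to 2.67 CPM in WT libraries.

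**Figure D3:**
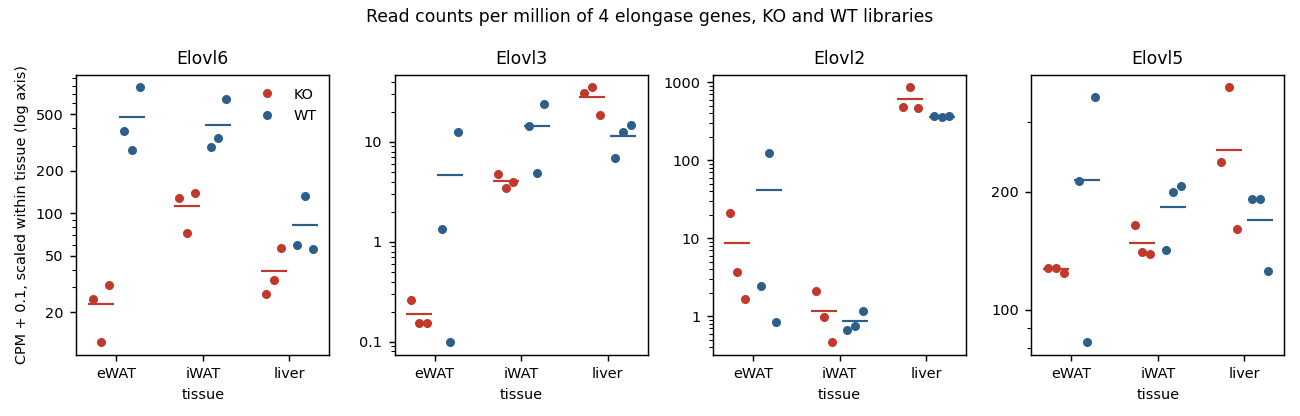
CPM of Elovl6, Elovl3, Elovl2 and Elovl5 per library (CPM + 0.1 on a log axis, scaled within each tissue); red points are KO libraries, blue points WT libraries, and lines are group means (n = 3). Elovl6 is 12.3 to 31.0 CPM in KO eWAT and 282 to 778 CPM in WT eWAT, while Elovl3 lies lower in KO iWAT and higher in KO liver than in the WT libraries of the same tissue.

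**Figure D4:**
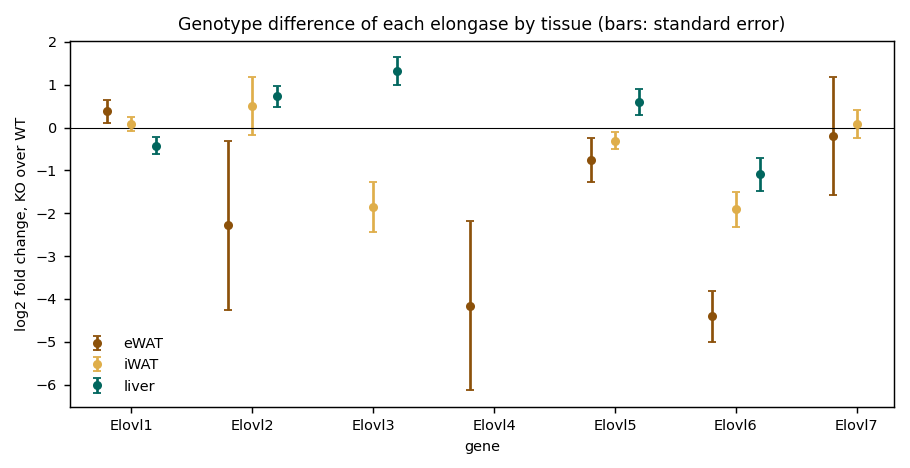
Log2 fold change of KO over WT for each elongase tested, with its standard error, by tissue (edgeR, 6 libraries per tissue). Elovl6 lies below 0 in all 3 tissues (-4.41, -1.90 and -1.09), and Elovl3 lies at -1.86 in iWAT and 1.32 in liver.

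Whether the genotype difference itself differed between tissues was tested as an interaction. No elongase passed in edgeR in any pair of tissues, against 0% of 15455 genes for iWAT minus eWAT, 0% of 14673 genes for liver minus iWAT and 0% of 14984 genes for liver minus eWAT. At an unadjusted p under 0.05 there were 739, 705 and 794 genes, and DESeq2 called 31, 35 and 39 genes. For Elovl6 the difference of log2 fold changes was 2.46 ± 0.70 for iWAT minus eWAT and 3.36 ± 0.72 for liver minus eWAT. The adjusted p were 0.969 and 0.787 in edgeR, and 0.117 and 0.00662 in DESeq2, so neither passed in edgeR. Both draw on the low KO eWAT level of Elovl6 that was known when the family was chosen, so nothing is read from them. For Elovl3 the difference was 3.17 ± 0.70 for liver minus iWAT (adjusted p of 0.658 in edgeR and 0.00795 in DESeq2). The Elovl3 values of liver and iWAT thus ran opposite ways by the libraries, but the test of their difference did not pass in edgeR. For Elovl5 the liver minus iWAT difference was 0.89 ± 0.40 (edgeR adjusted p = 0.973).

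Levels were also compared between tissues within each genotype, again with edgeR on counts. These contrasts depend on the scaling. TMM factors were 0.463 to 0.583 in liver against 1.04 to 1.69 in fat, and FPKM carry no such factor. The median gene had a log2 fold change of liver over iWAT in KO libraries of -0.22 on the count scale and of -1.23 on the log2(FPKM + 1) scale. In KO libraries 4 of 6 elongases tested were higher in liver than in iWAT, against 68.5% of all genes called in either direction (30% higher and 38.5% lower). In KO libraries 5 of 7 were higher and 1 was lower in liver than in eWAT, against 67.9% of all genes called (30.9% higher and 37% lower). In WT libraries 3 of 6 were higher and 1 was lower in liver than in iWAT (62.1% of all genes called, 27% higher and 35.1% lower), and 1 of 6 was higher and 1 lower in liver than in eWAT (40.4%, 17.6% higher and 22.8% lower). Most genes differ between liver and fat, and a member with few reads in 1 tissue passed the filter only through the other, so nothing is read from these counts.

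Elovl2, the liver enzyme of the polyunsaturated pathway, was near 0 in iWAT. In KO libraries its log2 fold change for liver over iWAT was 10.52 ± 0.66 (edgeR adjusted p = 4.39e-06). It was 6.95 on the log2(FPKM + 1) scale, which compresses the change of a gene near 0. Elovl2 had 53, 18 and 7 reads in KO iWAT and passed the filter of that contrast only through liver, so nothing is read from its p. In WT libraries the log2 fold change was 10.25 ± 0.37 (adjusted p = 3.68e-06). Against eWAT it was 7.39 ± 1.19 in KO libraries (adjusted p = 0.00179) and 4.46 ± 1.83 in WT libraries (adjusted p = 0.0924). The WT value was 9.28 (adjusted p = 9.06e-07) in the fit of 15 libraries, without eWAT WT2 and its 123 CPM of Elovl2.

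Elovl3 was higher in KO liver than in KO iWAT on both scales. Its log2 fold change was 4.26 ± 0.30 for liver over iWAT (edgeR adjusted p = 7.99e-06) and 2.33 on the log2(FPKM + 1) scale. Against eWAT it was 9.35 ± 0.47 (adjusted p = 2.19e-05), a value that rests on 7 reads in the KO eWAT libraries together and changes with the prior count. Elovl3 passed the filter of that contrast through liver alone, so nothing is read from its p. In WT libraries liver over iWAT was 1.01 ± 0.57 on counts (adjusted p = 0.157) and -0.17 on FPKM, which gives no direction.

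Elovl5 in KO libraries was higher in liver than in iWAT, by 2.23 ± 0.31 on the log2 count scale (edgeR adjusted p = 0.000309) and 0.70 on FPKM. It was also higher in liver than in eWAT, by 2.37 ± 0.31 (adjusted p = 0.000621) and 0.79. In WT libraries liver over iWAT was 1.26 ± 0.26 (adjusted p = 0.00466) on counts but -0.11 on FPKM. Elovl1 turned as well: in KO libraries liver over iWAT was 0.91 ± 0.23 on counts (adjusted p = 0.00687) and -0.52 on FPKM (limma adjusted p = 0.0358), so the 2 scales gave opposite calls. Relative to the median gene of each scale Elovl1 was 1.12 and 0.70 higher in KO liver than in KO iWAT, and Elovl5 was 2.44 and 1.92 higher.

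In KO libraries Elovl6 was higher in iWAT than in eWAT, with a log2 fold change of 2.28 ± 0.40 (edgeR adjusted p = 0.0306). Elovl3 was called too, at 5.24 ± 0.64 (adjusted p = 0.013) on 7 reads in KO eWAT. Of all 14386 genes 7.02% were called (4.55% higher and 2.47% lower), and nothing is read from the 2 of 7 elongases: Elovl6 has the low KO eWAT level that was known when the family was chosen, and Elovl3 passed the filter through iWAT alone. The 2 calls do not survive the loss of libraries: without eWAT KO3, iWAT KO2 or iWAT KO3 neither was called, without eWAT KO1 Elovl6 was not, and the fit of 15 libraries gave Elovl6 3.199 with an adjusted p of 0.109 and Elovl3 6.00 with 0.209. In WT libraries Elovl6 had an iWAT over eWAT log2 fold change of -0.19 ± 0.52 (adjusted p = 0.901), and 0 of 7 elongases were called, against 0% of 14006 genes; 2043 genes had an unadjusted p under 0.05, and DESeq2 called 1166 genes and no elongase, with no adjusted p for Elovl2 and Elovl4. For Elovl6 liver over eWAT in KO libraries was 2.13 ± 0.42 (edgeR adjusted p = 0.00436) on counts and 0.57 on FPKM (limma adjusted p = 0.227). That contrast too draws on the known KO eWAT level, so nothing is read from its call.

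In WT libraries Elovl6 had a log2 fold change for liver over iWAT of -0.98 ± 0.44 on counts (edgeR adjusted p = 0.0852) and of -2.35 on FPKM (limma adjusted p = 0.00093). In KO libraries the same contrast was -0.10 ± 0.32 (adjusted p = 0.792) and -1.44. In KO libraries the count value has no direction: it lay between -0.44 and 0.12 with 1 library left out, and relative to the median gene it was 0.11 on counts and -0.21 on FPKM. In WT libraries it was negative under every alternative run, and was called on FPKM and, on counts, without liver WT2 (-1.48). Elovl7 was lower in WT liver than in WT iWAT, at -1.40 ± 0.42 (adjusted p = 0.0222), and than in WT eWAT, at -2.86 ± 0.86 (adjusted p = 0.0375), with 5 to 8 reads in each WT liver, so that it passed the filter through fat alone. These calls were lost in 8 of 12 and in 10 of 13 alternatives, with adjusted p up to 0.331 and 0.127. For KO liver over KO eWAT Elovl4 was at -2.45 ± 0.67 (edgeR adjusted p = 0.0153), on 4 reads in the KO livers together. It had 15, 23 and 19 reads in KO eWAT and passed the filter through eWAT alone, so nothing is read from its p. The call was lost in 6 of 13 alternatives.

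The other genes of the pathway were followed in 7 lists. None of their members was called between KO and WT by edgeR in any tissue, as few genes were, so the lists are described by the sign of the log2 fold change and its median. The list of malonyl-CoA and palmitate supply holds 10 genes, among them Mlycd, whose enzyme breaks malonyl-CoA down. Its 10 genes had negative values in KO eWAT, 10 in KO iWAT and 10 in KO liver. Their median log2 fold changes were -2.33, -0.91 and -0.31, beside -0.02, 0.01 and -0.0021 over all genes tested. Positive values made up 48.5% of all genes in eWAT, 52% in iWAT and 49.7% in liver. In the fit of 15 libraries 10 of 10 were negative in eWAT too, with a median of -2.94, beside -0.07 over all genes. Acly was at -3.72 in that fit. Acly, which makes cytosolic acetyl-CoA, had 478, 466 and 938 CPM in KO eWAT against 5324, 1749 and 6792 CPM in WT eWAT, and the genotypes did not overlap (-2.88 ± 0.72, edgeR adjusted p = 0.706). In KO iWAT it had 2848, 1228 and 2426 CPM against 2727, 6452 and 6870 CPM in WT iWAT, where KO1 overlapped WT1. The gene of lowest p in iWAT was Acacb, an acetyl-CoA carboxylase, at 414 ± 149 CPM in KO against 911 ± 359 CPM in WT (-1.14 ± 0.44, adjusted p = 1). In liver the gene of lowest p was Thrsp, a regulator of lipogenesis, at 172 ± 96.1 CPM in KO against 418 ± 240 CPM in WT (SD, n = 3 each; -1.28 ± 0.48, edgeR adjusted p = 0.703).

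The partner enzymes of the elongation cycle had the same sign as Elovl6 in fat for most members. Of 6 tested, 5 were negative in KO eWAT (median -0.73; 5 of 6 and -1.03 with 15 libraries), 6 in KO iWAT (median -0.28) and 3 in KO liver (median 0.06). Tecr, the enoyl reductase that ends each round, averaged 97.6 ± 14.8 CPM in KO eWAT against 234 ± 43.5 CPM in WT eWAT and did not overlap (-1.26 ± 0.26, adjusted p = 0.706). Hacd4, a dehydratase of the cycle, averaged 11.9 ± 2.30 CPM in KO iWAT against 25.8 ± 10.5 CPM in WT iWAT (-1.12 ± 0.35, adjusted p = 1). In eWAT Hacd4 was the member that went the other way, at 40.8 ± 15.9 CPM in KO against 22.5 ± 7.27 CPM in WT (0.86 ± 0.40). In liver the gene of lowest p was Tecr, at 141 ± 25.6 CPM in KO against 175 ± 19.4 CPM in WT (-0.31 ± 0.19).

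The desaturases, some of which act on products of elongation, were mixed. Of 10 tested in eWAT 6 were negative (9 of 10 with 15 libraries), of 9 in iWAT 5, and of 7 in liver 4. Scd2 averaged 452 ± 175 CPM in KO eWAT against 1542 ± 482 CPM in WT eWAT and 693 ± 166 CPM in KO iWAT against 1268 ± 375 CPM in WT iWAT, without overlap in either depot. In liver Scd1, the desaturase that takes the stearate made by ELOVL6, had 568, 208 and 448 CPM in KO libraries against 2359, 1013 and 800 CPM in WT libraries (-1.77 ± 0.46, edgeR adjusted p = 0.500).

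Among the lipogenic regulators the direction in eWAT depended on the libraries: 9 of 16 were negative with 6 libraries (median -0.14) and 7 of 16 with 15 libraries (median 0.02). In iWAT 6 of 16 were negative and in liver 8 of 15. Insig1, which holds back SREBP processing and is itself an SREBP target, had the lowest p of that list in each tissue. It averaged 103 ± 25.5 CPM in KO eWAT against 327 ± 178 CPM in WT eWAT, 330 ± 144 CPM in KO iWAT against 137 ± 41.9 CPM in WT iWAT, and 245 ± 35.5 CPM in KO liver against 391 ± 102 CPM in WT liver (SD, n = 3 each).

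Of the acyl-CoA synthetases, which activate fatty acids, 6 of 10 were negative in KO eWAT (6 of 10 with 15 libraries), 5 of 10 in KO iWAT and 3 of 8 in KO liver. Acsl3 had the lowest p in both depots, with 20.4 ± 3.14 CPM in KO eWAT against 45.9 ± 9.30 CPM in WT eWAT (-1.17 ± 0.24, edgeR adjusted p = 0.706) and 30.7 ± 12.1 CPM in KO iWAT against 22.2 ± 3.79 CPM in WT iWAT. In liver Acsl1 averaged 898 ± 210 CPM in KO against 424 ± 92.7 CPM in WT (1.08 ± 0.24, adjusted p = 0.427). The ceramide synthases use long or very long acyl-CoA. Of them 3 of 5 were negative in KO eWAT (4 of 5 with 15 libraries), 3 of 5 in KO iWAT and 4 of 4 in KO liver. Their genes of lowest p were Cers2 in eWAT (-0.31 ± 0.39), Cers5 in iWAT (0.23 ± 0.19) and Cers2 in liver (-0.30 ± 0.16), where Cers2 averaged 309 ± 11.4 CPM in KO against 379 ± 32.1 CPM in WT.

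The genes that use or break down very long chains were negative for 8 of 12 in KO eWAT (8 of 12 with 15 libraries) and 7 of 11 in KO iWAT, and positive for 10 of 12 in KO liver (median 0.27). Abcd3, a peroxisomal transporter, averaged 110.1 ± 7.81 CPM in KO eWAT against 186 ± 27.2 CPM in WT eWAT (-0.75 ± 0.21, edgeR adjusted p = 0.706). The peroxisomal thiolase gene Acaa1b averaged 673 ± 203 CPM in KO liver against 347 ± 38.9 CPM in WT liver (0.96 ± 0.25, adjusted p = 0.500), and 18.6 ± 2.77 CPM in KO iWAT against 29.1 ± 10.8 CPM in WT iWAT.

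**Figure D5:**
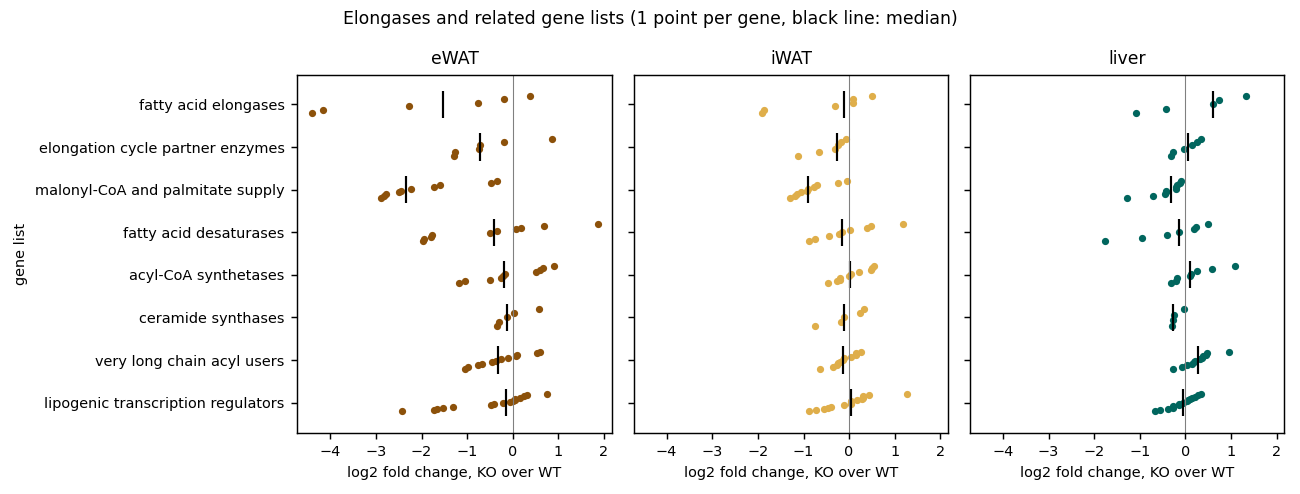
Log2 fold change of KO over WT for the elongases and the genes of 7 related lists, by tissue; 1 point per gene tested, black lines are list medians. The list of malonyl-CoA and palmitate supply has medians of -2.33, -0.91 and -0.31 in eWAT, iWAT and liver.

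The genes most like each elongase were found from log2 CPM of the 18 libraries after the mean of each tissue was taken off, over 11510 genes. Pearson's r is given as a description, since the libraries share genotype groups and tissue makeup. Elovl6 was most like Pdk1 (0.92), a kinase that inhibits pyruvate dehydrogenase, Mrs2 (0.91) and Acly (0.90). Elovl3 was most like Zc3h8 (0.91), Mpc1 (0.87), a mitochondrial pyruvate carrier, and Hadha (0.86), of mitochondrial fatty acid oxidation. Elovl5 was most like Ap4m1 (0.90), Cntnap1 (0.88) and Ehhadh (0.87), a peroxisomal oxidation enzyme. Elovl2 was most like Cpn1 (0.90), Aass (0.89) and Eppk1 (0.88), and Elovl1 was like Mapre2 (0.90) and Dnm2 (0.86). Within the family Elovl3 and Elovl5 had the highest r, 0.80, and Elovl2 and Elovl4 the next, 0.76. The r of Elovl2 and Elovl4 includes their shared high values in eWAT WT2. The r of Elovl3 and Elovl5 includes that library too, where both were lowest among WT eWAT libraries, and WT3, where both were highest.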

How the data were processed

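Per the submitters' processing notes, the tools were RSEM, HISAT2, StringTie 1.3.1, Bowtie2 2.2.8, fastp 0.18.0, edgeR and DESeq2, on mm10, with no roles stated. Per the labels' protocols, poly(A) RNA extracted with Trizol was sequenced on a NovaSeq instrument. Files deposited by the authors give, per gene and library, the expected count and the FPKM (reads divided by gene length and library size). Of the deposited expected counts, 8.57% were not whole within 0.005; all values of the elongases were whole. Counts were rounded, filtered with filterByExpr (minimum count 10, total 15), TMM-scaled and tested with edgeR 4.0.16 (glmQLFit, robust) in R 4.3.3, with Benjamini-Hochberg adjustment over all genes tested. A log2 fold change and its F statistic gave each standard error. Of 22298 identifiers, 22255 matched GENCODE M21. Alternatives were DESeq2 1.42.0, limma 3.58.1 on log2(FPKM + 1) or log2(FPKM + 0.1), with a minimum mean FPKM of 1 or none, median-of-ratios factors, no filter, all 18 libraries together, a replicate block and leaving out each library; the fit of 15 libraries was chosen after seeing the data for contrasts between tissues and pathway lists, as was the family sum without Elovl6. Scripts were tested on simulated data. Elongases were all named; of each pathway list, at least the gene of lowest p in each tissue (up to 3 by rule), and the 3 genes most like each member with a mean log2 CPM (prior count 2) of at least 1; 1 gene under this rule is not reported here. Members and lists were chosen with earlier results of these data known.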

Additional observations from a re-analysis of the deposited data

How the results depend on the processing

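Between KO and WT the count of genes called varied with the tool and the libraries. In eWAT, where edgeR called 0 genes and 0 elongases, DESeq2 called 126 genes, the fit of all 18 libraries 4 and the fit of 15 libraries 71, and each of them called 1 elongase, Elovl6. In iWAT DESeq2 called 67 genes and 1 elongase, against 0 and 0. In liver, where 6 genes were called, 11 were called with no filter, 65 by DESeq2 (1 elongase against 0), 0 on log2(FPKM + 1) with no filter and 0 with all 18 libraries, and 0 to 25 with 1 library left out. For the interactions, with 0 genes called in each, DESeq2 called 31 (iWAT minus eWAT), 35 (liver minus iWAT, 1 elongase against 0) and 39 (liver minus eWAT, 2 elongases against 0); log2(FPKM + 1) called 3 for liver minus iWAT, as did log2(FPKM + 0.1), and 4 for liver minus eWAT with or without a filter; the fit of 15 libraries called 27 and 7 for the contrasts with eWAT; leaving out 1 library gave 0 to 3, 0 to 1 and 0 to 9. Whether same-numbered libraries share an animal is not in the labels; in no comparison was every correlation of same-numbered deviations over 0.1. With them as a block, 39 genes were called in liver (against 6), 456 for iWAT minus eWAT in KO (against 1010) and 1 elongase for liver minus eWAT in WT (against 2).

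For iWAT minus eWAT in KO, 1010 genes and 2 elongases were called; no filter gave 479 genes, DESeq2 3104, log2(FPKM + 1) 535 genes and 1 elongase, the same without a filter 129 and 1, the fit of 15 libraries 75 and 0, and leaving out 1 library 0 to 2436 and 0 to 2. In WT, against 0 genes and 0 elongases, DESeq2 called 1166 genes, log2(FPKM + 1) and log2(FPKM + 0.1) 2 each, all 18 libraries 1437 genes and 2 elongases, the fit of 15 libraries 128 genes, and leaving out 1 library 0 to 92 genes. For liver minus eWAT in WT, against 5398 genes and 2 elongases, all 18 libraries called 8593 and 5, the fit of 15 libraries 8411 and 5, no filter 1 elongase, and leaving out 1 library 2235 to 7295 genes and 1 to 4 elongases. For liver minus eWAT in KO, log2(FPKM + 1) with no filter called 3 elongases against 6, and for liver minus iWAT in WT log2(FPKM + 1) and log2(FPKM + 0.1) called 2 against 4.

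Some log2 fold changes changed sign. Under log2(FPKM + 1), with and without a filter, and log2(FPKM + 0.1), Elovl1 in KO was -0.52 and -0.54 for liver minus iWAT and -0.51 and -0.52 for liver minus eWAT; in WT, Elovl3 was -0.17 and -0.15 and Elovl5 -0.11 and -0.12 for liver minus iWAT, Elovl5 -0.0271 and -0.0251 for liver minus eWAT, and Elovl5 0.0868 and 0.0907 and Elovl6 0.0127 and 0.0126 for iWAT minus eWAT. The Elovl3 interaction of iWAT minus eWAT was -0.18 on log2(FPKM + 1). In the fit of 15 libraries, KO minus WT in eWAT was 1.198 for Elovl2 and 1.09 for Elovl4; iWAT minus eWAT in KO was -0.0756 for Elovl1 and 3.87 for Elovl7; liver minus eWAT in KO was 2.86 for Elovl7; the interactions with eWAT were -0.73 (iWAT) and -0.48 (liver) for Elovl2 and -2.30 (iWAT) for Elovl4. With the replicate block Elovl2 in eWAT was 0.34. Leaving out 1 library, KO minus WT in eWAT ranged from -4.02 to 2.58 for Elovl2, from -4.71 to 0.67 for Elovl4 and from -1.30 to 0.88 for Elovl7, and in iWAT from -0.27 to 0.89 for Elovl2 and from -0.0721 to 0.20 for Elovl7. Between tissues it ranged from -0.0334 to 0.18 (Elovl1, iWAT minus eWAT, KO), from -0.44 to 0.12 (Elovl6, liver minus iWAT, KO), and for iWAT minus eWAT in WT from -0.63 to 0.29 (Elovl5) and from -0.58 to 0.32 (Elovl6). The interactions ranged, for iWAT minus eWAT, from -2.08 to 4.53 (Elovl2), -1.89 to 3.95 (Elovl4), -0.15 to 0.79 (Elovl5) and -0.79 to 1.40 (Elovl7); for liver minus iWAT from -0.15 to 0.95 (Elovl2) and -0.11 to 0.95 (Elovl7); and for liver minus eWAT from -1.76 to 4.80 (Elovl2) and -0.35 to 1.84 (Elovl7). The cause was not tested. Elovl6 and Elovl3 kept their signs between KO and WT in each tissue where they were tested, under every alternative run. Elovl4 and Elovl7 in liver and Elovl3 in eWAT are limited by depth.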
